A study of Mus musculus with 4 samples.

Results

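Toll-like receptors are membrane proteins that sense molecules of microbes and of damaged cells, and Cd14 is a co-receptor that hands lipopolysaccharide and other ligands to them. The 10 genes described here are Tlr1 to Tlr9 and Cd14, taken from a fixed list of names, out of 18193 genes that had a probe set with 1 gene symbol. The list was chosen with earlier results of these data known. They were read by 16 probe sets of 45037. RNA came from the parietal peritoneum, the membrane that lines the inside of the abdominal wall, in C57BL/6J mice, and was read on 4 Affymetrix arrays, with 1 array for each group.

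The first group consisted of mice with a brain natriuretic peptide (BNP) transgene under the serum amyloid P promoter (SAP-BNP-Tg, called transgenic here) that received chlorhexidine gluconate, and the second of transgenic mice that received ethanol in PBS, called vehicle here. The other groups were wild-type mice given chlorhexidine and wild-type mice given vehicle. BNP is a circulating natriuretic hormone, and the serum amyloid P promoter is active in the liver, so the peritoneum is not the tissue in which the transgene is driven. Chlorhexidine, an antiseptic that irritates the peritoneum, was injected into the peritoneal cavity as a 0.1% solution in 15% ethanol and 85% PBS at 0.01 mL per gram of body weight, 3 times per week for 21 days. The labels do not give the age, the sex or the number of mice behind an array, nor the volume, ethanol content and schedule of the vehicle. The comparisons ask how the receptors differ with chlorhexidine in each genotype and whether the transgene goes with another level or another response.

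Toll-like receptors differ in where they sit and in what they bind. Tlr1, Tlr2, Tlr4, Tlr5 and Tlr6 lie at the cell surface, where Tlr2 pairs with Tlr1 or Tlr6 to bind bacterial lipopeptides, Tlr4 with its partner Ly96 binds lipopolysaccharide, and Tlr5 binds flagellin. Tlr3, Tlr7, Tlr8 and Tlr9 lie in endosomes and sense nucleic acids. All signal through the adaptor Myd88 except Tlr3, which uses Ticam1, as Tlr4 also can, and the signal ends in NF-kB and interferon regulatory factors. In the peritoneum the receptors are carried mainly by macrophages and other leukocytes, while mesothelial cells and fibroblasts express some of them too.

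For 7 of the 10 members at least 1 promoter window was used from the RefSeq table of build GRCm38.p6, which covers 250 bases before to 50 bases after a start site. Tlr4 and Tlr7 had no entry. Cd14 was left out of the search, so whether its promoter holds a match is not given here. The promoters of Tlr2 and Tlr3 are shown because these receptors had 2 of the 3 largest chlorhexidine differences in wild-type mice among the 10 members. The other reason is that, among the 7 members whose windows were searched, these 2 alone held a match to the kappa B motif, the site bound by NF-kB. Capitals mark matches on either strand to the kappa B motif and to AANNGAAA, the core of sites for interferon regulatory factors. The windows lie on the minus strand, at chr3:83841559-83841858 for Tlr2 and chr8:45410331-45410630 for Tlr3.
Tlr2: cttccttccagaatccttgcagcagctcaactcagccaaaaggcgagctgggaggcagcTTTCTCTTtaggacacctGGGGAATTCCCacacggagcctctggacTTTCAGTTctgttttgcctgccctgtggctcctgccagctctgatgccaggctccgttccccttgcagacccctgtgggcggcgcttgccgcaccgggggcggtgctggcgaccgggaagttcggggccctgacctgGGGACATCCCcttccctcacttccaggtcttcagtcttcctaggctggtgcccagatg
Tlr3: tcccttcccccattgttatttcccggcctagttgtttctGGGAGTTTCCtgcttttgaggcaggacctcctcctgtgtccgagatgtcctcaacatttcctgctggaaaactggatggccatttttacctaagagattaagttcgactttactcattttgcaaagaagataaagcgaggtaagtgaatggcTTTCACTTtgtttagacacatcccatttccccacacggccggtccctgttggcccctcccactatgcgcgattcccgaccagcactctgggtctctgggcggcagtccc

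Tlr2 held 3 kappa B matches, of which 2 overlap and 1 of these is a palindrome, and Tlr3 held 1. Over all 32851 promoter windows of the table, 4.51% held such a match. As these promoters were shown in part for holding the motif, that share is background only. The interferon regulatory factor core was matched 2 times in Tlr2 and 1 time in Tlr3, as well as in a window of Tlr1 and of Tlr6, and 23.9% of all windows held it. The letters GAGGAA, the core of sites for the myeloid factor PU.1, occurred in a window of Tlr1, Tlr8 and Tlr9, against 28.3% of all windows. These matches describe the letters only.

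Each group had 1 array, so no difference below has a replicate check, none carries a p-value, and the number of arrays limits the precision. Values are the deposited signals scaled to a common trimmed mean, on a linear scale that can be set against itself between arrays but not between probe sets. Calls required a difference of at least 2-fold, a Present (detected) call on the brighter array and a signal there at or above the 25th percentile of Present signals, which was 34.5 to 35.4. Folds over a dimmer array without a Present call are lower bounds, written as at least. The arrays called 53.5% (transgenic, chlorhexidine), 52.5% (transgenic, vehicle), 55.1% (wild type, chlorhexidine) and 50.5% (wild type, vehicle) of the probe sets Present. The wild-type vehicle array stood apart, with a deposited 18S rRNA signal of 898.5, against 82.8 to 117 on the others. Its beta-actin signal was 5.81 times as high at the 3-prime end as in the middle of the transcript, against 2.23 to 2.84 times. This ratio is a sign of RNA quality. Its 3-prime beta-actin signal was 1.22 times the 5-prime signal, against 1.07 to 1.15 times on the others, so this measure sets it less apart. The wild-type vehicle array enters every wild-type chlorhexidine difference. For the members detected on an array these differences are therefore given over the transgenic vehicle array too, and for other genes and lists where that turns the direction or moves the fold by over 1.5 times. Nppb, the gene of BNP, was Absent on all 4 arrays, so the signals do not check the genotype labels. Mesothelial markers were measured, with 11 of 12 Present on every array, and so were the 12 skeletal muscle markers of the abdominal wall.

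With chlorhexidine most Toll-like receptors had a higher signal in both genotypes. Since the members were chosen with earlier results of these data known, the shares of all genes given beside them are descriptions and no test. In 8 of the 10 members (Tlr1 to Tlr7 and Cd14) both chlorhexidine arrays lay above both vehicle arrays, where 30.1% of the 12754 genes Present on at least 1 array did so. In transgenic mice 4 of 10 members were 2-fold higher (Tlr1, Tlr3, Tlr5 and Tlr7), where 3.81% of genes were. In wild-type mice 4 of 10 were 2-fold higher (Tlr2, Tlr3, Tlr4 and Tlr7), where 8.22% of genes were. None was 2-fold lower, against 1.4% of genes in transgenic and 4.93% in wild-type mice. Tlr3 and Tlr7 were called in both genotypes, 2 of 10 members against 3.03% of genes. The median log2 difference over all 10 members was 1.01 in transgenic and 1.08 in wild-type mice, where all genes had medians of 0.00. Without Tlr9, which was Absent throughout, the medians were 1.03 and 1.18, and over the transgenic vehicle array the wild-type one was 0.95. With both genotypes set against the transgenic vehicle array 3 members were called in both (Tlr1, Tlr3 and Tlr7), where 3.24% of genes were, and against the wild-type vehicle array 4 were (Tlr2, Tlr3, Tlr4 and Tlr7), where 4.42% were.

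**Figure D1:**
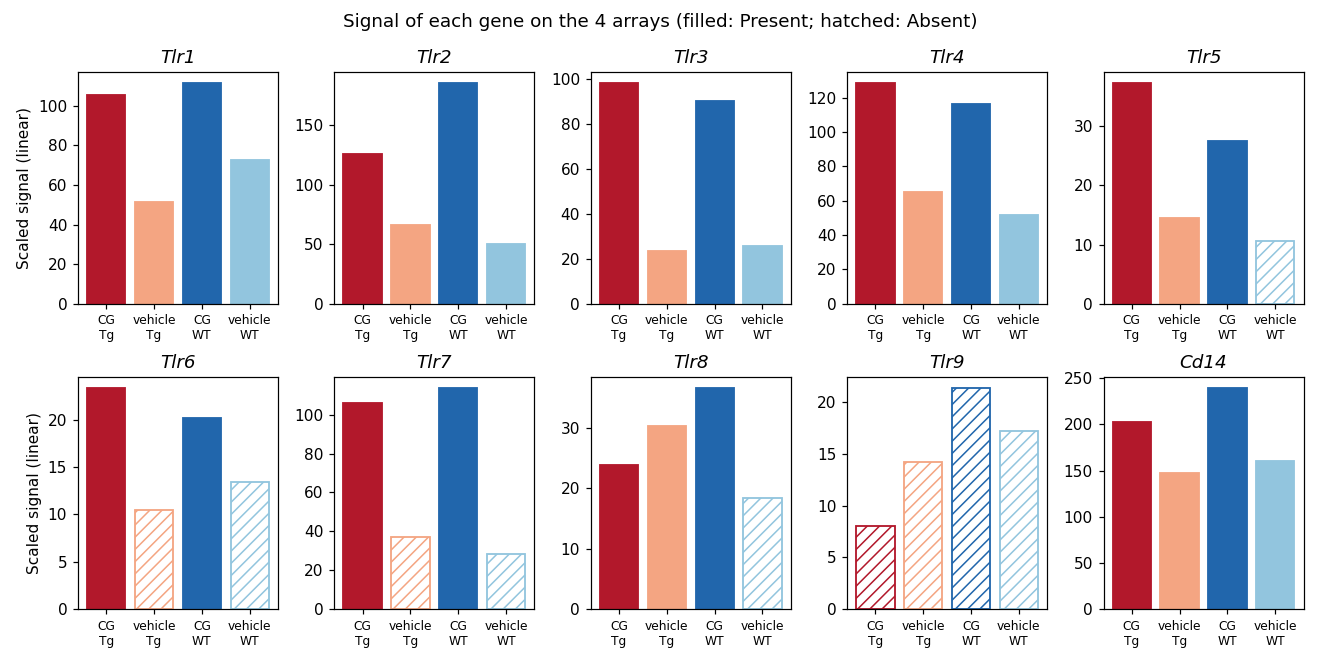
Scaled signal (linear axis from 0, own scale for each gene) of Tlr1 to Tlr9 and Cd14 on the 4 arrays, 1 bar per array, with CG for chlorhexidine, Tg for transgenic and WT for wild type. Filled bars were called Present and hatched bars Absent. In Tlr1 to Tlr7 and Cd14 both chlorhexidine bars stand above both vehicle bars, in Tlr8 they do not, and Tlr9 was Absent throughout.

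Among the receptors of the cell surface, Tlr2, the shared partner in lipopeptide sensing, had a signal of 125 with chlorhexidine and 66.3 with vehicle in transgenic mice, and of 185 with chlorhexidine and 49.8 with vehicle in wild-type mice. It was Present on all 4 arrays, and both chlorhexidine arrays were above both vehicle arrays. Tlr2 was 1.89-fold higher with chlorhexidine in transgenic mice, under the threshold, and 3.72-fold higher in wild-type mice, or 2.79-fold with the transgenic vehicle array below it. The transgenic minus wild-type difference of the log2 differences was -0.98, just short of the threshold of 1, and came from both treatments. Tlr2 was 1.48-fold lower in transgenic than in wild-type mice under chlorhexidine and 1.33-fold higher under vehicle.

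Tlr1, a partner of Tlr2, read 105 with chlorhexidine and 51.7 with vehicle in transgenic mice, and 112 with chlorhexidine and 72.8 with vehicle in wild-type mice. The chlorhexidine arrays were nearly level, and the vehicle arrays differed more, with transgenic 1.41-fold below wild type. Tlr1 was thus 2.04-fold higher with chlorhexidine in transgenic and 1.53-fold in wild-type mice, and the wild-type fold was 2.16 over the transgenic vehicle array. Tlr6, the other partner of Tlr2 and the neighbour of Tlr1 on chromosome 5, had 23.3 with chlorhexidine and 10.4 with vehicle in transgenic mice, against 20.2 and 13.5 in wild-type mice in the same order. Tlr6 was Present on both chlorhexidine arrays and Absent on both vehicle arrays. Its folds of at least 2.24 in transgenic and at least 1.5 in wild-type mice were not called, as all 4 signals lay under the filter on dim probe sets, and over the transgenic vehicle array the wild-type bound was 1.93.

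Tlr4, the lipopolysaccharide receptor, had a signal of 129 with chlorhexidine and 65.1 with vehicle in transgenic mice, and of 117 with chlorhexidine and 51.6 with vehicle in wild-type mice. The genotypes were close under either treatment, and the groups of chlorhexidine and vehicle arrays did not overlap. Tlr4 was 1.98-fold higher with chlorhexidine in transgenic mice, just under the threshold, and 2.26-fold higher in wild-type mice, or 1.79-fold with the transgenic vehicle array below it, which is not called. A second Tlr4 probe set Present on all 4 arrays differed by 1.18 in transgenic and 1.12 in wild-type mice on the log2 scale, and another, dimmer one by 1.32 and 0.50. The remaining Tlr4 probe set was Absent throughout.

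Cd14, which delivers lipopolysaccharide to Tlr4, differed least among the 8 members that were higher in both genotypes. In wild-type mice this rank was narrow, with log2 differences of 0.57 for Cd14 and 0.58 for Tlr6. Under quantile normalization Tlr6, at 0.39, and Tlr1, at 0.40, lay below Cd14, at 0.48, in wild-type mice. The signal of Cd14 was 202 with chlorhexidine and 148 with vehicle in transgenic mice, and 239 with chlorhexidine and 161 with vehicle in wild-type mice. All 4 arrays were Present, both chlorhexidine arrays were above both vehicle arrays, and the folds of 1.37 in transgenic and 1.49 in wild-type mice (1.62 over the transgenic vehicle array) were not called. The genotypes differed by 1.18-fold under chlorhexidine and by 1.09-fold under vehicle, both lower in transgenic mice.

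Tlr5, the flagellin receptor, had 37.3 with chlorhexidine and 14.6 with vehicle in transgenic mice, and 27.5 with chlorhexidine and 10.5 with vehicle in wild-type mice. Only the wild-type vehicle array was not Present. Tlr5 was 2.56-fold higher with chlorhexidine in transgenic mice and at least 2.61-fold in wild-type mice. The wild-type value was not called, since 27.5 lay under the filter on dim probe sets, and over the transgenic vehicle array it was 1.89-fold.

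Of the endosomal receptors, Tlr3, which binds viral-type RNA duplexes, had a signal of 98.3 with chlorhexidine and 23.6 with vehicle in transgenic mice, and 90.2 with chlorhexidine and 25.5 with vehicle in wild-type mice. On the log2 scale transgenic minus wild type was 0.12 under chlorhexidine and -0.11 under vehicle. Tlr3 was 4.17-fold higher with chlorhexidine in transgenic and 3.54-fold in wild-type mice, and 3.82-fold in wild-type mice against the transgenic vehicle array. It had the highest chlorhexidine difference of the 10 members in transgenic mice, above 98.8% of genes. The second Tlr3 probe set, also Present on all 4 arrays, differed by 2.06 in transgenic mice, like the first, but by 2.97 in wild-type mice, where it read 9.72 on the vehicle array. Its transgenic minus wild-type differences were -0.29 under chlorhexidine and 0.63 under vehicle, of opposite sign to those of the first, so the probe sets give no common genotype difference for Tlr3.

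Tlr7, a receptor for uridine-rich RNA, had 106 with chlorhexidine and 37.3 with vehicle in transgenic mice, and 114 with chlorhexidine and 28.4 with vehicle in wild-type mice. Both chlorhexidine arrays were Present and both vehicle arrays Absent. Tlr7 was at least 2.84-fold higher with chlorhexidine in transgenic mice and at least 4.0-fold in wild-type mice. With the probe sets used, the wild-type value was the highest of the 10 members. That rank depended on the probe sets and on the vehicle array. The wild-type bound was 3.05 over the transgenic vehicle array, where Tlr3 was 3.82-fold higher. With the probe sets of a gene averaged, the wild-type log2 difference was 2.40 for Tlr3 and 1.92 for Tlr7. The other Tlr7 probe sets, both matched to the transcript AI604175, were Present only on the wild-type chlorhexidine array, at 12.1 and 14.2. They were Absent on both transgenic arrays, so they give no difference in transgenic mice, where the Tlr7 value comes from the 1 probe set detected.

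Tlr8, the neighbour of Tlr7 on chromosome X, was the only member Present on any array whose chlorhexidine differences had opposite signs. It had 23.8 with chlorhexidine and 30.3 with vehicle in transgenic mice, and 36.6 with chlorhexidine and 18.4 with vehicle in wild-type mice, where the vehicle array was Absent. The highest and the lowest of the 4 signals were thus both in wild-type mice. Tlr8 was 1.27-fold lower with chlorhexidine in transgenic mice and at least 1.99-fold higher in wild-type mice, neither of which was called. Over the transgenic vehicle array the wild-type signal was 1.21-fold higher.

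Tlr9, the receptor for unmethylated DNA, was Absent on all 4 arrays, with signals of 7.98 (chlorhexidine) and 14.2 (vehicle) in transgenic mice and 21.4 (chlorhexidine) and 17.2 (vehicle) in wild-type mice. Differences between these values compare undetected signals, and none was called.

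**Figure D2:**
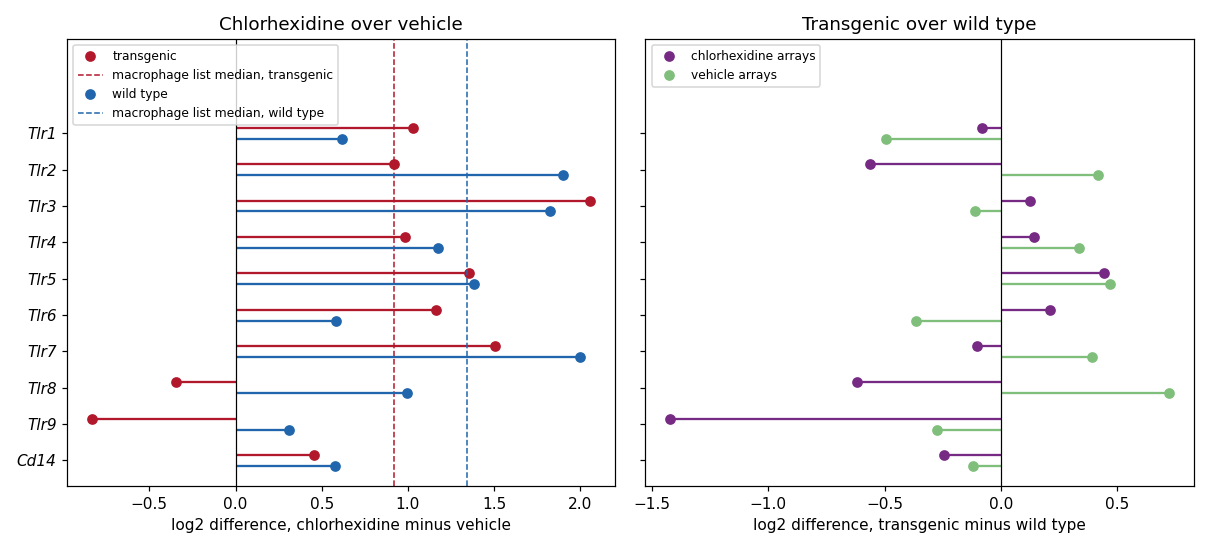
Log2 differences of each gene, with chlorhexidine minus vehicle on the left (transgenic above wild type) and transgenic minus wild type on the right (chlorhexidine arrays above vehicle arrays), 1 point per comparison of 2 arrays with no error bar. Dashed lines give the medians of the macrophage marker list, 0.92 in transgenic and 1.35 in wild-type mice. Tlr3 and Tlr7 lie to the right of both lines, and Cd14 lies to the left of both.

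**Figure D3:**
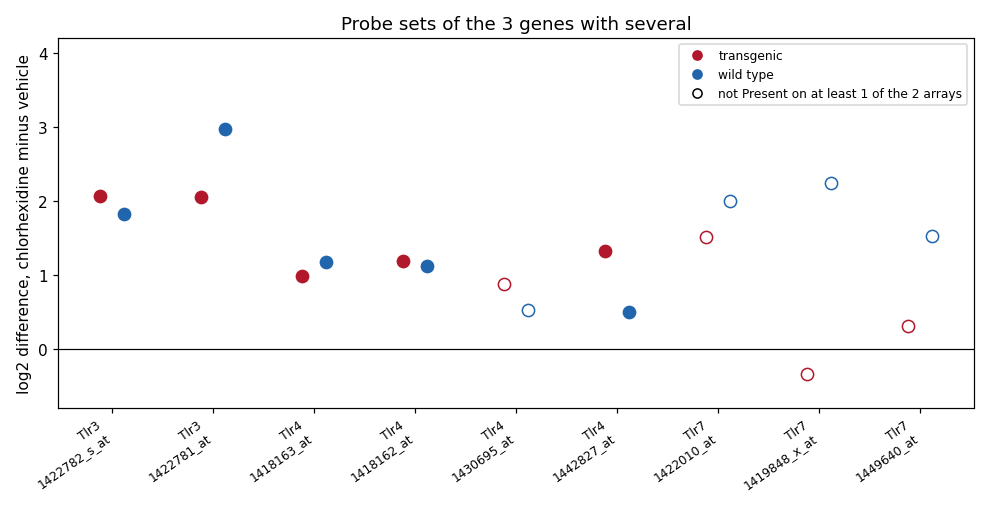
Log2 difference, chlorhexidine minus vehicle, for all 9 probe sets of Tlr3, Tlr4 and Tlr7, with transgenic left of wild type and open circles where at least 1 of the 2 arrays was not Present. The Tlr3 probe sets and the 3 Tlr4 probe sets Present on all 4 arrays lie above 0 in both genotypes. Of the Tlr7 probe sets, 1 was detected in transgenic mice.

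Between genotypes under the same treatment, no member was called. Under chlorhexidine 0 of 10 members were 2-fold higher and 0 were 2-fold lower in transgenic than in wild-type mice, where 0.784% and 0.964% of genes were, and under vehicle the counts were again 0 and 0, where 0.957% and 0.502% were. The log2 differences ran under chlorhexidine over the 9 detected members from -0.62 (Tlr8) to 0.44 (Tlr5) and under vehicle from -0.49 (Tlr1) to 0.72 (Tlr8). At a threshold of 1.5-fold, Tlr8 alone was called, 1.54-fold lower in transgenic than in wild-type mice under chlorhexidine, where 4.3% of genes were lower by that much and 3.46% higher. For the difference of the chlorhexidine differences, Tlr8 was the only member called, at -1.34, where 2.95% of genes were lower and 1.99% higher, a split that turned with the scaling (254 higher and 376 lower genes as reported, 365 and 287 under quantile normalization). Tlr2, at -0.98, was called with Tlr8 at a 1.5-fold threshold (2 of 10 members, where 9.17% of genes were lower and 8.65% higher), and Tlr7 had -0.49. Tlr1 had 0.41. For Tlr5, Tlr6, Tlr7 and Tlr8 at least 1 vehicle array was Absent, so these values rest in part on undetected signal.

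Genes whose proteins act with Toll-like receptors, their relatives or their ligands had in part a higher signal too. The list of such partners was chosen, like the lists below, with earlier results of these data known. All 11 were measured, and 3 were called higher in transgenic and 5 in wild-type mice, with none lower and medians of 0.49 and 0.87 in that order. List medians and summed signals are over genes Present on at least 1 array. Lgmn, a lysosomal protease that cleaves endosomal receptors, was 2.44-fold higher with chlorhexidine in transgenic and 3.38-fold in wild-type mice, and for Slc15a3, a lysosomal peptide transporter, the bounds were 2.74-fold and 4.33-fold. Ly86, the secreted partner of the receptor-like protein Cd180, was 2.03-fold and 3.07-fold higher in the same order, and Cd180 itself 1.21-fold and 2.0-fold. Ly96, which completes the Tlr4 receptor, was 1.46-fold and 1.80-fold higher, and Unc93b1, the escort of endosomal receptors, 1.31-fold and 1.83-fold, neither of them called.

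The intracellular relay differed less. Of 17 measured adaptors and kinases, 2 were called higher in transgenic and 3 in wild-type mice, with none lower and medians of 0.03 and 0.23. Myd88, the shared adaptor, was called in both, at 255 with chlorhexidine and 119 with vehicle in transgenic mice and at 292 and 114 in wild-type mice, which gives folds of 2.14 and 2.56. Ticam1, the adaptor of Tlr3, had 19.8 with chlorhexidine and 19.4 with vehicle in transgenic mice, and 25.6 with chlorhexidine and 32.8 with vehicle in wild-type mice, Present on the chlorhexidine arrays alone, and was not called. Over the transgenic vehicle array the direction turned, with the wild-type chlorhexidine signal of Ticam1 at least 1.32-fold higher. Of 9 transcription factors, 1 was higher in transgenic and 2 in wild-type mice. Irf7, which acts below the endosomal receptors and is itself interferon-induced, was 3.15-fold higher with chlorhexidine in transgenic and 8.71-fold in wild-type mice (4.35-fold over the transgenic vehicle array), and Irf5 was 1.34-fold and 2.19-fold higher. The feedback inhibitors, 17 on the array and 15 Present on at least 1, held 1 gene called higher and 1 lower in transgenic mice and 2 higher in wild-type mice. Socs3, an inhibitor of cytokine signalling, was 2.37-fold and 2.26-fold higher. Atf3, a repressor induced by stress, was 2.02-fold lower with chlorhexidine in transgenic mice and 2.15-fold higher in wild-type mice, but 2.09-fold lower there over the transgenic vehicle array, and it was 4.49-fold higher in transgenic than in wild-type mice under vehicle.

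Genes that Toll-like receptor signalling is known to induce were compared next. Of 19 NF-kB target genes on the array 13 were Present on at least 1 array, and 6 were called higher in transgenic and 11 in wild-type mice, 5 of them in both, with medians of 1.01 and 1.73. Bcl3, a regulator in the NF-kB family, was 2.27-fold and 3.28-fold higher, and Saa3, an acute phase protein made by macrophages, 2.32-fold and 2.73-fold (1.55-fold in wild-type mice over the transgenic vehicle array). Cxcl2, a chemokine for neutrophils, was 1.46-fold lower with chlorhexidine in transgenic mice and at least 8.55-fold higher in wild-type mice, or 2.35-fold over the transgenic vehicle array. Of 9 measured genes of the interferon arm, 8 were called higher in transgenic and 9 in wild-type mice, with medians of 2.25 and 3.17 (2.58 in wild-type mice over the transgenic vehicle array). Among them Rsad2, an antiviral enzyme, was 6.31-fold and 8.47-fold higher (5.43-fold in wild-type mice over the transgenic vehicle array), and Usp18, which limits interferon signalling, 5.09-fold and 9.29-fold. Tumour necrosis factor (Tnf) was Absent on all 4 arrays.

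Other sensors of innate immunity were compared next, with 19 on the array and 16 Present on at least 1. In transgenic mice 9 and in wild-type mice 10 of them were called higher, 8 in both, with medians of 1.25 and 1.81. Tlr13, the mouse endosomal receptor for bacterial ribosomal RNA, was not among the 10 listed genes and had 177 with chlorhexidine and 60.6 with vehicle in transgenic mice, and 168 with chlorhexidine and 35.2 with vehicle in wild-type mice. It was 2.91-fold and 4.76-fold higher with chlorhexidine, and 2.76-fold in wild-type mice over the transgenic vehicle array. Ifih1, a cytosolic RNA sensor, was 2.99-fold and 4.27-fold higher, the scavenger receptor Msr1 at least 3.87-fold and 5.61-fold, and the C-type lectin Clec4d 2.90-fold and 3.05-fold. Trem1, an amplifier of Toll-like receptor signals on myeloid cells, had lower bounds of 12.8-fold in transgenic mice and, not called, 3.12-fold in wild-type mice (8.22-fold over the transgenic vehicle array).

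Monocyte and macrophage markers were higher with chlorhexidine too. In bulk tissue a change in the number of cells of a type and a change in RNA per cell cannot be told apart. All 18 measured monocyte and macrophage markers had a higher signal with chlorhexidine in both genotypes. For Cx3cr1, which was Absent on both transgenic arrays, the transgenic difference compares undetected signals. In transgenic mice 6 of the 18 markers were called and in wild-type mice 11. The summed signal of the list was 15326 with chlorhexidine and 9317 with vehicle in transgenic mice and 17280 with chlorhexidine and 9252 with vehicle in wild-type mice. The list's medians were 0.92 in transgenic and 1.35 in wild-type mice. Within the list Csf1r, the receptor that keeps macrophages alive, was 1.31-fold and 1.21-fold higher, and Adgre1, the F4/80 antigen, 1.42-fold and 1.79-fold. In contrast, Fcgr1, a high-affinity antibody receptor, was 4.73-fold and 6.65-fold higher, and Itgam, an integrin of myeloid cells, 2.14-fold and 4.56-fold (2.02-fold in wild-type mice over the transgenic vehicle array). Ptprc, carried by nearly all leukocytes, was 1.48-fold and 1.29-fold higher (1.95-fold in wild-type mice over the transgenic vehicle array).

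Set beside this list, the members fell on both sides of it. Tlr3 lay above its median by 1.14 in transgenic and by 0.48 in wild-type mice, with 17 and 14 of the 18 markers below it. Tlr7 lay above it by 0.59 and 0.65. Tlr4 was within 0.17 of the median in both genotypes, and Tlr5 lay above it by 0.44 and 0.04. Over the transgenic vehicle array the wild-type list median was 1.15, and Tlr5, at 0.92, and Tlr4, at 0.84, lay below it. There Tlr3, at 1.94, and Tlr7, at 1.61, stayed above that median, and Cd14, at 0.70, stayed below it. The values that follow are again over the vehicle array of the same genotype. Cd14 lay below the list median, by -0.46 in transgenic and by -0.77 in wild-type mice, with 2 and 4 markers below Cd14. Tlr8 had a lower difference than each of the 18 markers in transgenic mice. The part of the macrophage markers in the receptor differences was not tested.

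Neutrophil and B cell markers moved in opposite directions with chlorhexidine. Of 7 neutrophil markers Present on at least 1 array, 5 were called higher in transgenic and 4 in wild-type mice, and their summed signal was 2574 with chlorhexidine and 333 with vehicle in transgenic mice, and 597 with chlorhexidine and 153 with vehicle in wild-type mice. The list's medians were 2.27 and 2.40, the wild-type one 0.74 over the transgenic vehicle array. Neutrophils carry Tlr2 and Tlr4. The part of both lists in the receptor differences was not tested. Of 7 B cell markers Present on at least 1 array, 5 were called lower in transgenic and 6 in wild-type mice, with summed signals of 229 with chlorhexidine and 1683 with vehicle in transgenic mice, and of 164 with chlorhexidine and 3721 with vehicle in wild-type mice. The list's medians were -2.30 and -3.22, the wild-type one -2.14 over the transgenic vehicle array. Of these 7 markers Cd79b, Cd22 and Jchain were Present on all 4 arrays, and Cd79a, Ms4a1 and Fcmr on the vehicle arrays alone. B cells carry Tlr7 and Tlr9 in mice, as do plasmacytoid dendritic cells, whose marker Siglech was Absent on all 4 arrays. Other genes of the dendritic cell list were detected and went both ways with chlorhexidine. Bst2 was called higher in both genotypes, with a smaller log2 difference of 1.60. Ly6d was called lower in both, with a smaller difference of 1.99 in size. The part of dendritic cells in the receptor differences was not tested.

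**Figure D4:**
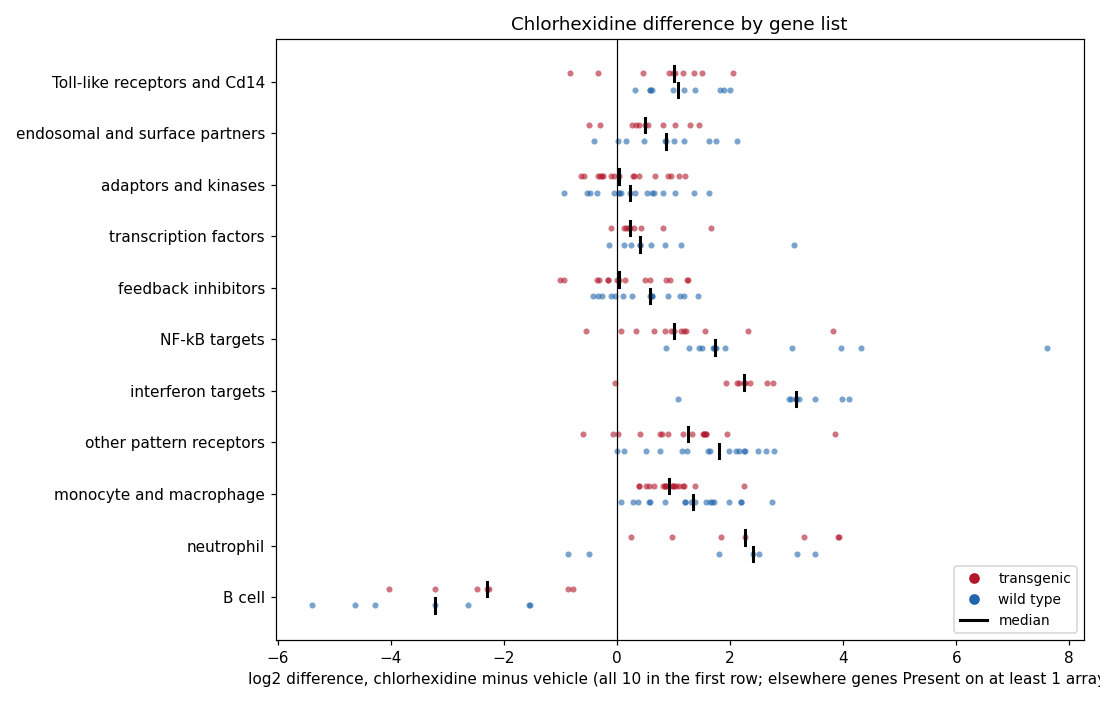
Log2 difference, chlorhexidine minus vehicle, of the 10 members and of the measured genes of 10 lists, with 1 point per gene, black bars for medians and transgenic above wild type in each row. The interferon targets have the highest medians in wild-type mice, 3.17, the B cell markers the lowest, -3.22, and the members are spread on both sides of the monocyte and macrophage median.

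The genes with the nearest pattern over the 4 arrays were found by the Euclidean distance between centred log2 profiles, among up to 10406 other genes Present on all 4 arrays. With 4 arrays many genes lie close, so these are descriptions. For Tlr7 the nearest was Slfn2, at a distance of 0.04, with 531 with chlorhexidine and 188 with vehicle in transgenic mice and 579 with chlorhexidine and 140 with vehicle in wild-type mice. For Tlr3 it was Apoc2, at 0.15, followed by the alarmin Il33 at 0.20, and for Tlr2 it was Myc, at 0.10. For Tlr4 it was Il1rl2, a receptor of the interleukin 1 family, at 0.10, and the mannose receptor Mrc1 lay at 0.11. For Tlr8 the nearest was Bcl2l11, at 0.04, and for Cd14 Mis18a, also at 0.04.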

How the data were processed

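RNA was labelled as biotin cRNA, per the labels' protocols, and hybridised to 1 array per group. Groups follow the labels. The deposited signal of a probe set is an intensity on a linear scale, per the file headers. The authors also deposited a detection p-value with a call (Present, Marginal, Absent) for each. Which algorithm and scaling target were used is not given in the sources used here. At every probe set the authors' series table matched these signals.

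Of 45101 probe sets, 64 controls were left out. The arrays' 2% trimmed means were 101 (transgenic, chlorhexidine), 116 (transgenic, vehicle), 103 (wild type, chlorhexidine) and 86.8 (wild type, vehicle). Arrays were scaled to the mean of these, floored at 0.1 and put on the log2 scale with Python 3.11.15 and pandas 2.3.3. Of 34945 probe sets with 1 symbol in the platform annotation, 34741 were updated through Entrez identifiers to RefSeq GRCm38.p6. A gene took its probe set of highest mean log2 signal. With 1 array per group no test was possible. Lower bounds took the higher of that array's lowest Present signal and the probe set's own. The calling rule was tested on simulated data. Members and the 19 gene lists were chosen with earlier results of these data known. All members were named, with up to 4 genes per list called in both genotypes, up to 2 by the difference of differences, Nppb, Ptprc, Csf1r, Adgre1 and up to 3 nearest profiles per member. Cd180, Irf5, Ly96, Unc93b1, Ticam1, Tnf, Tlr13, Cx3cr1, Cd79b, Cd22, Fcmr and Siglech, where outside that rule, were named after their values were seen. Alternatives (other scalings with limma 3.58.1 in R 4.3.3, filters, thresholds, probe set rules, the other vehicle array) are given in the closing section.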

Additional observations from a re-analysis of the deposited data

Results flagged for a closer look

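Tlr8 had chlorhexidine differences of opposite sign in the 2 genotypes. Its difference of the log2 differences, transgenic minus wild type, was -1.34, with -0.34 in transgenic and 0.99 in wild-type mice. The wild-type vehicle array, which stood apart in its 18S rRNA signal, was Absent for Tlr8, and over the transgenic vehicle array the wild-type difference was 0.27. Only the wild-type chlorhexidine signal, 36.6, passed the filter on dim probe sets. The difference between genotypes was not tested, since each group had 1 array.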

How the results depend on the processing

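With 1 array per group no array could be left out within a group. No paired analysis was possible because the labels give no replicate numbers and each group had 1 array. Of 370 values of single members under 8 alternatives that change the values, none that was called changed sign, and 45 moved by more than the SD among a gene's probe sets, most of them with 32 added to the signal, with the deposited scaling or with the other vehicle array. The members called in wild-type mice numbered 2 (Tlr2 and Tlr3) when probe sets of a gene were averaged, against 4. In transgenic mice they numbered 1 (Tlr3) with 32 added to the signal and also 1 (Tlr3) at 3-fold, against 4. Between the chlorhexidine arrays 1 member, Tlr8, was called at 1.5-fold, against 0. For the difference of differences, where Tlr8 was the 1 member called, the count was 2 (with Tlr2) under the deposited scaling, where all genes had a median of -0.44 and split into 78 higher and 1297 lower (254 and 376 as reported), and at 1.5-fold, and 0 with 32 added, with Present calls on all 4 arrays and at 3-fold. Tlr3 was called higher in both genotypes under each alternative, and Tlr7 lost its call in both genotypes with the mean of its probe sets (2 of 3 Absent on 3 arrays), in transgenic mice with 32 added and at 3-fold, and in both where both arrays had to be Present. Tlr4 in wild-type mice lost its call under quantile normalization, median centring, cyclic loess, 32 added, averaged probe sets, 3-fold and the other vehicle array, and Tlr1 in transgenic mice under the first 4 of these, the deposited scaling, 3-fold and the other vehicle array. The deposited scaling moved the median of all genes by -0.20 (transgenic) and 0.25 (wild type), with splits of 329 higher and 320 lower genes in transgenic mice and 1586 and 318 in wild-type mice, against 486 and 178, and 1049 and 629, as reported. Median centring moved the wild-type median to -0.18, with a split of 773 higher and 1073 lower. With 32 added the counts were 252 and 82 in transgenic and 586 and 364 in wild-type mice, at 3-fold 148 and 55, and 423 and 148, and at 1.5-fold 1246 and 683, and 2116 and 1896. Tlr5 and Tlr6 lay near the detection limit, which limits their folds.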

Other observations

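Other cell types of the peritoneum gave these list values, as medians of the log2 chlorhexidine difference over genes Present on at least 1 array. The 7 large peritoneal macrophage genes had 1.36 in transgenic and 0.53 in wild-type mice, with 4 and 2 called higher. The 6 mast cell genes had 0.66 and 0.90 in the same order, the 8 fibroblast genes 0.50 and 0.85, and the 9 endothelial genes -0.02 and 0.64. The 12 mesothelial genes had 0.18 and -0.82, with 0 and 5 called lower, the 7 adipocyte genes -0.70 and -1.38, and the 12 skeletal muscle genes 0.06 and -0.24 (0.06 in wild-type mice over the transgenic vehicle array). The 7 T and NK cell genes had -0.37 and 0.06, and the 6 dendritic cell genes -0.36 and -0.08.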
